A study of Oryctolagus cuniculus with 8 samples.

Results

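The mature miRNAs cut from the precursors of miR-140, miR-151 and miR-708 were followed in extracellular vesicles of rabbit oviductal and uterine fluid, small membrane-bound particles shed by cells. Every row of the deposited table with one of these names was taken, both arms included, which gave 6 of 579 mature miRNA names, each on 1 row. They are ocu-miR-140-3p, ocu-miR-140-5p, ocu-miR-151-3p, ocu-miR-151-5p, ocu-miR-708-3p and ocu-miR-708-5p, written below without the species prefix. The members were chosen by their levels: they were picked as miRNAs inside protein-coding host genes with higher values in the uterine than in the oviductal libraries. The values of that contrast below are therefore a description, and no test of them is given. Only the 3p arms, miR-140-3p, miR-151-3p and miR-708-3p, bore out the description "uterine-high" in every library. The 5p arms did not: miR-151-5p and miR-708-5p had lower mean levels in uterine than in oviductal vesicles, and miR-140-5p overlapped between the groups.

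A miRNA precursor is a short hairpin, and its left and right sides give the 5p and the 3p mature miRNA, of which usually one is kept and loaded into Argonaute proteins to repress target mRNAs. Many precursors lie in introns of protein-coding genes and can be transcribed with their host. miR-140 lies in WWP2, which encodes a ubiquitin ligase, and is known from cartilage and other mesenchymal tissue. miR-151 lies in PTK2, the gene of focal adhesion kinase, which relays signals from integrins, and miR-708 lies in TENM4, the gene of a teneurin, a transmembrane protein of cell adhesion. miR-151 and miR-708 belong to one precursor family with miR-28, which lies in LPP, the gene of a focal adhesion protein. In the RefSeq gene table of the assembly mOryCun1.1, the genes MIR140, MIR151, MIR708 and MIR28 lay within the spans of WWP2, PTK2, TENM4 and LPP. That table gives spans without exons or strand, and it is of another build than the deposited data, so introns and coordinates are not given here. No other miRNA of the deposited table lay within WWP2, PTK2 or TENM4.

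There were 5 oviductal and 3 uterine libraries. All came from sexually mature, multiparous California x New Zealand white does labelled wild type, and there is no untreated group. Every doe got the gonadotropin eCG (25 IU) to synchronise the cycle. A GnRH analogue (20 µg), given 48 h after it, induced ovulation, and fluids were collected 14 to 15 h after that. Each oviductal library pooled 3 animals, whose oviducts were flushed with 1 mL of buffer each, and each uterine library pooled 5, with 2.2 mL per uterus. With 30 places in the pools and 21 does, at least some does must be in several pools, and the labels do not say which. Uterine replicate 12 carries that number in its title and the number 1 in its library name. Depth ran from 42684 reads in oviductal replicate 3 and 47598 in oviductal replicate 2 to 569087 in oviductal replicate 5, and from 232546 to 479865 reads in the uterine libraries. Levels are given as CPM, reads per 1000000 miRNA reads of the library. A read of an abundant miRNA lowers the CPM of all others, and in such pools fewer vesicles of one source and less of a miRNA per vesicle cannot be told apart.

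The 3p arm of miR-151 had the most reads of the 6. It had 6335, 5588, 5576, 4678 and 8844 CPM in oviductal replicates 1 to 5, and 39197, 14792 and 10620 CPM in uterine replicates 12, 3 and 4. All 3 uterine libraries were above all 5 oviductal ones, and replicate 12 stood far above the other two. The margin between the groups was small, since the lowest uterine library was at 1.20 times the highest oviductal one. miR-151-3p held rank 17 to 28 among all miRNAs of the oviductal libraries and rank 7, 15 and 18 in uterine replicates 12, 3 and 4, where it took 3.92%, 1.48% and 1.06% of all reads. The means were 21536 ± 15436 in the uterine group (SD, n = 3) against 6204 ± 1588 CPM in the oviductal group (SD, n = 5), a ratio of 3.47, and the log2 fold change of edgeR's quasi-likelihood fit, which rescales libraries, was 2.29 ± 0.49 (SE).

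**Figure D1:**
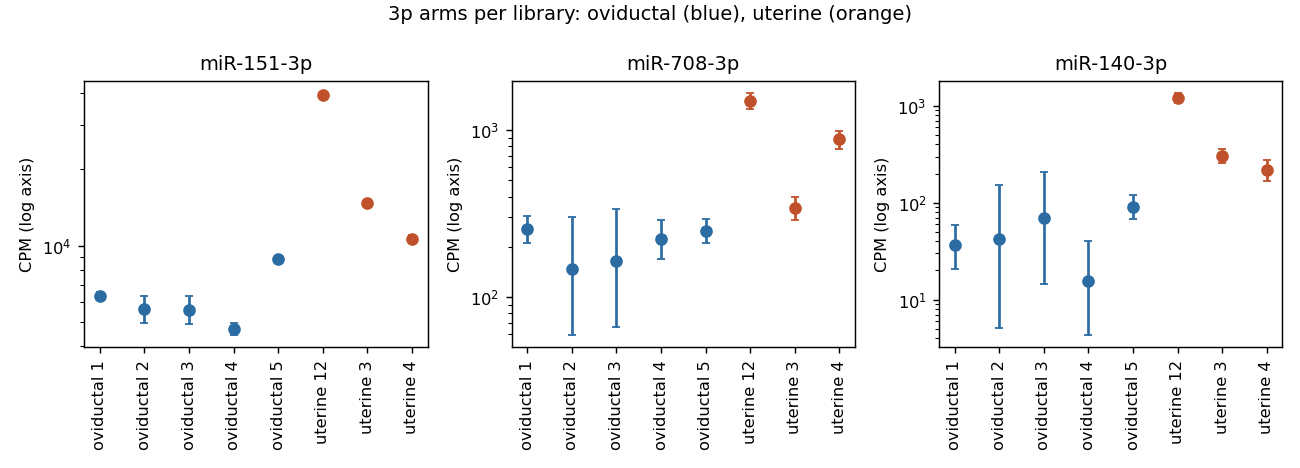
Level of the 3p arms in each library, in CPM on log axes that differ between panels. Points are libraries, oviductal in blue and uterine in orange, and bars are 95% Poisson intervals of the reads, which cover counting error only. Every uterine point lies above every oviductal point in each panel, and uterine replicate 12 is the highest, at 39197 CPM for miR-151-3p, 1496 for miR-708-3p and 1204 for miR-140-3p.

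The 3p arm of miR-708 had 255.9, 147, 164, 223.9 and 249.5 CPM in oviductal replicates 1 to 5, and 1496, 339.7 and 878.7 CPM in uterine replicates 12, 3 and 4. The groups did not overlap, and the oviductal libraries lay close together, with a coefficient of variation of 23.9% against 64.0% in the uterine group. Oviductal replicates 2 and 3 rest on 7 reads each. Their 95% Poisson intervals of 59.1 to 303.0 and 65.9 to 337.9 CPM overlap that of uterine replicate 3, 289.5 to 396.0 CPM. The upper bounds of oviductal replicates 1, 4 and 5, at 307.7, 290.1 and 294.1 CPM, lie within it too. The means were 905 ± 578.8 in the uterine group (SD, n = 3) against 208 ± 49.8 CPM in the oviductal group (SD, n = 5), a ratio of 4.35, and the log2 fold change was 2.44 ± 0.65 (SE).

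The 3p arm of miR-140 had the largest log2 fold change of the members and few oviductal reads. It had 36.2, 42.0, 70.3, 15.7 and 91.4 CPM in oviductal replicates 1 to 5, and 1204, 304.3 and 216.3 CPM in uterine replicates 12, 3 and 4. The groups did not overlap, and the lowest uterine library was at 2.37 times the highest oviductal one. In oviductal replicates 2, 3 and 4 the values rest on 2, 3 and 4 reads, against 63 to 280 reads in the uterine libraries, so these oviductal levels are imprecise. The 95% Poisson interval of oviductal replicate 3, 14.5 to 205.4 CPM, overlaps that of uterine replicate 4, 166.2 to 276.7 CPM. The means were 574.9 ± 546.7 in the uterine group (SD, n = 3) against 51.1 ± 29.8 CPM in the oviductal group (SD, n = 5), a ratio of 11.2, and the log2 fold change was 4.02 ± 0.86 (SE).

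Of the 6 members 4 passed edgeR's filter on low counts, the 3p arms and miR-151-5p. In all, 178 miRNAs were tested. Of these 1.69% were past the Benjamini-Hochberg adjusted threshold of 0.05 and higher in uterine vesicles, and in 4.49%, 8 miRNAs, every uterine library had a higher CPM than every oviductal one. The 3p arms are 3 of those 8, which the choice of members fixes. The reverse, every uterine library below every oviductal one, held for 18 of the 178. The log2 fold change was above 0 in 3 of the 4 tested members and in 48.9% of all tested miRNAs. By log2 fold change miR-140-3p stood at place 4 of the 178 tested, miR-708-3p at place 12, miR-151-3p at place 14 and miR-151-5p at place 161.

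**Figure D2:**
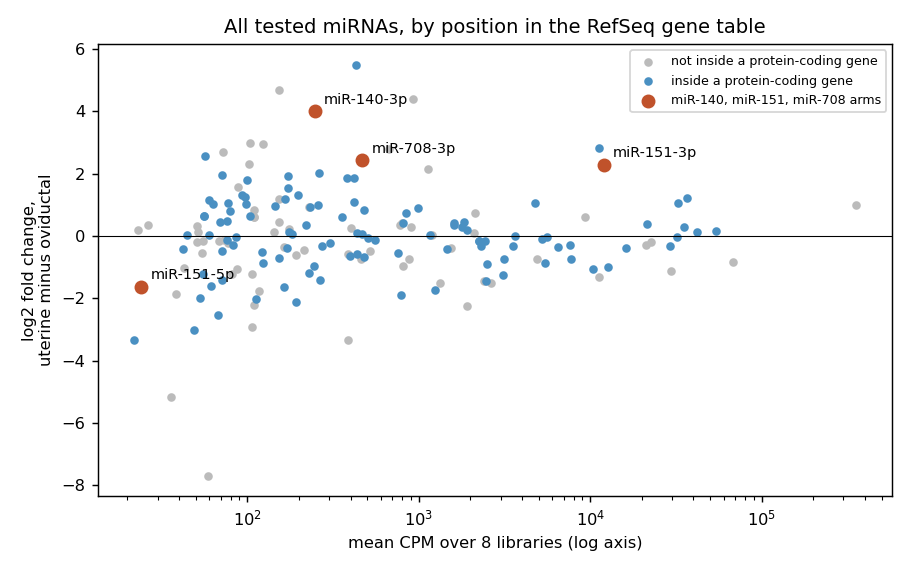
The edgeR log2 fold change, uterine minus oviductal, of each of the 178 tested miRNAs against its mean CPM over 8 libraries on a log axis. Orange points are the tested arms of miR-140, miR-151 and miR-708, blue points are other miRNAs inside the span of a protein-coding gene and grey points are the rest. The 3p arms lie at 2.29 to 4.02 and miR-151-5p at -1.62, while blue and grey points lie on both sides of 0.

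Uterine replicate 12 carried much of the size of these differences. Without it the log2 fold change was 2.70 ± 0.95 (SE) for miR-140-3p, 1.36 ± 0.47 for miR-151-3p and 1.55 ± 0.70 for miR-708-3p. The sign was kept in each case, and the log2 fold changes of miR-140-3p, miR-151-3p and miR-708-3p were positive under each of the 16 alternatives run. They ranged from 2.70 to 4.54, from 1.36 to 2.77 and from 1.55 to 2.73. No other alternative lowered them as far. The next lowest, with a block by library number, were 3.26, 1.62 and 1.83. Uterine replicate 12 shares its number with no oviductal library, so it did not enter the contrast of that fit either. The block is thus not a separate check that keeps this library.

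**Figure D3:**
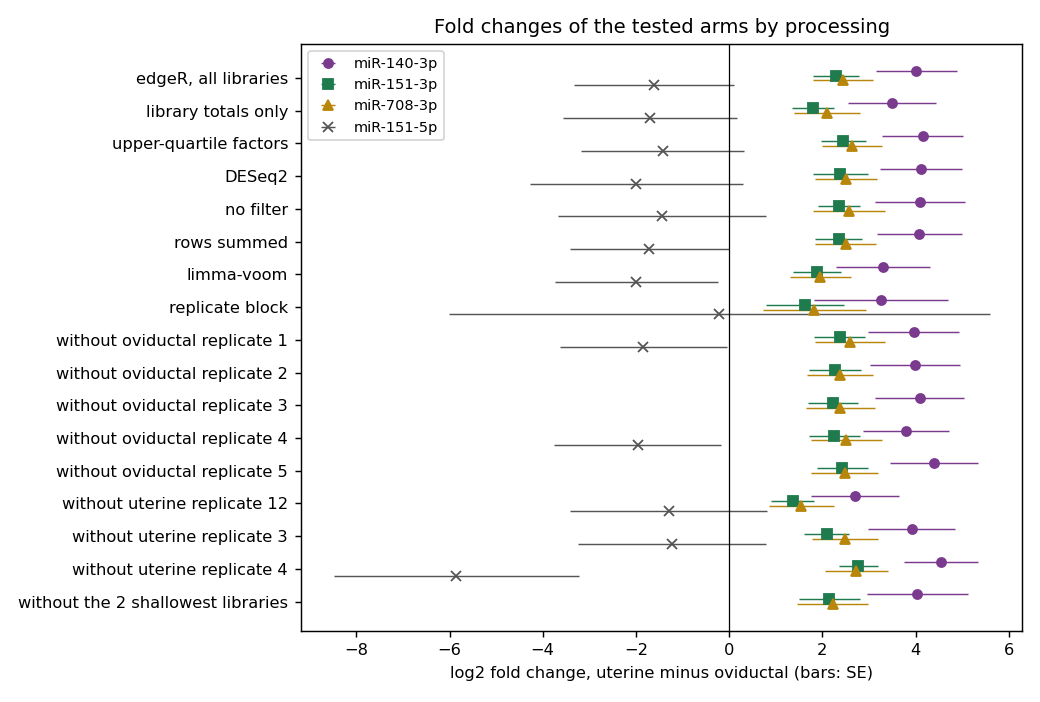
The log2 fold change, uterine minus oviductal, of the 4 arms that passed the filter, by scaling, tool, filter, block and left-out library. Points are estimates, bars are SE, and a missing point means that the arm did not pass the filter in that setting. The 3p arms stay right of 0 throughout, lowest without uterine replicate 12, and miR-151-5p stays left of 0 with bars that cross it in many settings.

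The 5p arms were rare. miR-151-5p had 43 reads in all against 28832 for miR-151-3p: 5, 3, 2, 0 and 25 reads in oviductal replicates 1 to 5, and 0, 0 and 8 in uterine replicates 12, 3 and 4. The groups overlapped, and 2 of the 3 uterine libraries had none. As CPM the means were 9.15 ± 15.9 in uterine (SD, n = 3) and 33.0 ± 26.3 in oviductal vesicles (SD, n = 5), with a log2 fold change of -1.62 ± 1.72 (SE). It passed the filter through its oviductal libraries.

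For miR-708-5p there were 15, 1, 4, 1 and 76 reads in oviductal replicates 1 to 5, and 0, 0 and 1 in uterine replicates 12, 3 and 4. Of its 98 reads 76 lay in oviductal replicate 5. The oviductal level was 57.2 ± 54.4 CPM (SD, n = 5), with replicates 5 and 3 highest at 133.5 and 93.7 CPM, the latter from 4 reads. The 0 reads in uterine replicates 12 and 3 allow levels of up to 12.9 and 6.25 CPM by a floor of 3 reads. In oviductal replicate 4 and uterine replicate 4, at 3.93 and 3.43 CPM with 1 read each, the groups meet. Over pooled reads the oviductal level was 71.8 times the uterine one, with a 95% counting interval of 12.6 to 2866 that leaves out the spread between libraries. Without oviductal replicate 5 it was 26.8 times, with an interval of 4.31 to 1108.

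miR-140-5p had 8, 0, 0, 0 and 18 reads in oviductal replicates 1 to 5, and 25, 0 and 21 in uterine replicates 12, 3 and 4. It was the one 5p arm with a higher mean in uterine vesicles, at 59.9 ± 54.8 (SD, n = 3) against 9.95 ± 14.4 CPM (SD, n = 5). The groups overlapped because uterine replicate 3 had none, which allows up to 6.25 CPM there. In oviductal replicates 2 and 3 a floor of 3 reads stands for 63.0 and 70.3 CPM, so 0 reads there do not show a level under the uterine mean.

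Within a library the reads of the members can be set side by side without contrasting the groups. The uterine libraries, where the 3p arms are high by the choice of members, are still among the 8. They raise the ratios of 3p to 5p arms. Reads of every pair of members were compared in the same library by an exact two-sided sign-flip permutation test over 8 libraries, for which the smallest possible p is 0.00781, with Benjamini-Hochberg adjustment over the 15 pairs. Mature miRNAs are of similar length, so reads were not scaled by length. How well each sequence enters a library was not measured and may be alike in every library. The orders below are therefore of reads and may differ from those of molecules. By mean CPM the order was miR-151-3p, miR-708-3p, miR-140-3p and then the 5p arms, and 11 of the 15 pairs were past 0.05. miR-151-3p had more reads than miR-708-3p in 8 of 8 libraries, by 4.75 ± 0.58 on the log2 scale (SD, n = 8; exact permutation p = 0.00781, adjusted 0.0117). miR-708-3p had more reads than miR-140-3p in 8 of 8 libraries, by 1.63 ± 1.19 (SD, n = 8; exact permutation p = 0.00781, adjusted 0.0117). The 5p arms could not be ordered among themselves. The mean log2 ratio was 0.26 ± 2.60 for miR-140-5p over miR-151-5p, 0.22 ± 1.48 for miR-708-5p over miR-151-5p and -0.03 ± 3.09 for miR-708-5p over miR-140-5p (SD, n = 8; exact permutation adjusted p of 0.871, 0.793 and 0.969). The spread exceeded the mean in all 3 of these pairs. The pair of miR-140-3p and miR-708-5p did not pass either, at 3.03 ± 3.96 (SD, n = 8; exact permutation adjusted p 0.0879).

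The ratio of miR-151-3p to miR-708-3p reads overlapped between the fluids. It ran from 20.9 to 38.0 in the oviductal libraries, and was 26.2, 43.5 and 12.1 in uterine replicates 12, 3 and 4. The uterine values enclose the oviductal ones. The ratio of miR-151-3p to miR-140-3p ran from 79.3 to 297.8 in the oviductal libraries and was 32.6, 48.6 and 49.1 in the uterine ones. These do not overlap, since miR-140-3p had the largest log2 fold change, and the oviductal ratios of replicates 2 to 4 rest on 2 to 4 reads of miR-140-3p.

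In all 3 precursors the 3p arm had more reads than the 5p arm, again an order of reads and not of molecules. miR-151-5p was lower than miR-151-3p by 9.64 ± 3.09 on the log2 scale (SD, n = 8; exact permutation p = 0.00781, adjusted 0.0117), and 8 of 8 libraries had this direction. The 3p arm exceeded the 5p arm in 8 of 8 libraries for miR-708, by 4.66 ± 3.44, and for miR-140, by 3.00 ± 2.27 (SD, n = 8; exact permutation p = 0.00781 and adjusted 0.0117 for both). Where a 5p arm had 0 reads, the size of the log2 ratio depends on the pseudocount of 0.5 reads. This holds for miR-151 in oviductal replicate 4 and uterine replicates 12 and 3, and for miR-708 in uterine replicates 12 and 3. For miR-140 it holds in uterine replicate 3 and oviductal replicates 2 to 4, which had only 2 to 4 reads of the 3p arm. Of the 130 precursors with both arms named and at least 100 reads, 55 gave more 3p than 5p reads. In order of rising 5p share, miR-151 was at place 28, miR-708 at place 42 and miR-140 at place 44.

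The share of the 5p arm differed by library. Reads of the 3p arm are part of its denominator, so the choice of members as uterine-high lowers their uterine share by itself. For miR-151 the 5p share was 0.178%, 1.12%, 0.833%, 0% and 0.494% of the reads of both arms in oviductal replicates 1 to 5, and 0%, 0% and 0.258% in uterine replicates 12, 3 and 4. With 9115 and 7098 reads of miR-151 in uterine replicates 12 and 3, 0 reads of the 5p arm allow shares of up to 0.0329% and 0.0423% there. The groups overlapped, since oviductal replicate 4 also had none.

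For miR-708 the 5p share was 11.7%, 12.5%, 36.4%, 1.72% and 34.9% in oviductal replicates 1 to 5, and 0%, 0% and 0.389% in uterine replicates 12, 3 and 4. No uterine share reached the lowest oviductal one, but the 95% Wilson intervals of oviductal replicate 4 (0.305% to 9.14%) and uterine replicate 4 (0.0687% to 2.17%) overlap. Over pooled reads the share was 22.9% of 423 oviductal and 0.130% of 768 uterine reads, and without oviductal replicate 5 the oviductal share was 10.2% of 205 reads. There were 767 uterine and 326 oviductal reads of miR-708-3p, a direction fixed by the choice of members. For miR-708-5p there were 1 and 97, with 76 of the latter in oviductal replicate 5. The groups differ in the number and depth of libraries, so these reads are not levels.

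For miR-140 the 5p share was 33.3% of 24 reads and 25.7% of 70 reads in oviductal replicates 1 and 5, and 0% in the others, which had only 2 to 4 reads of the precursor, so that the upper Wilson bounds were 49.0% to 65.8%. It was 8.20%, 0% and 25.0% in uterine replicates 12, 3 and 4. Uterine replicate 3 had 146 reads of miR-140-3p and none of miR-140-5p, with an upper Wilson bound of 2.56%. Uterine replicate 4 was near oviductal replicates 1 and 5, and the other oviductal libraries had too few reads to compare.

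**Figure D4:**
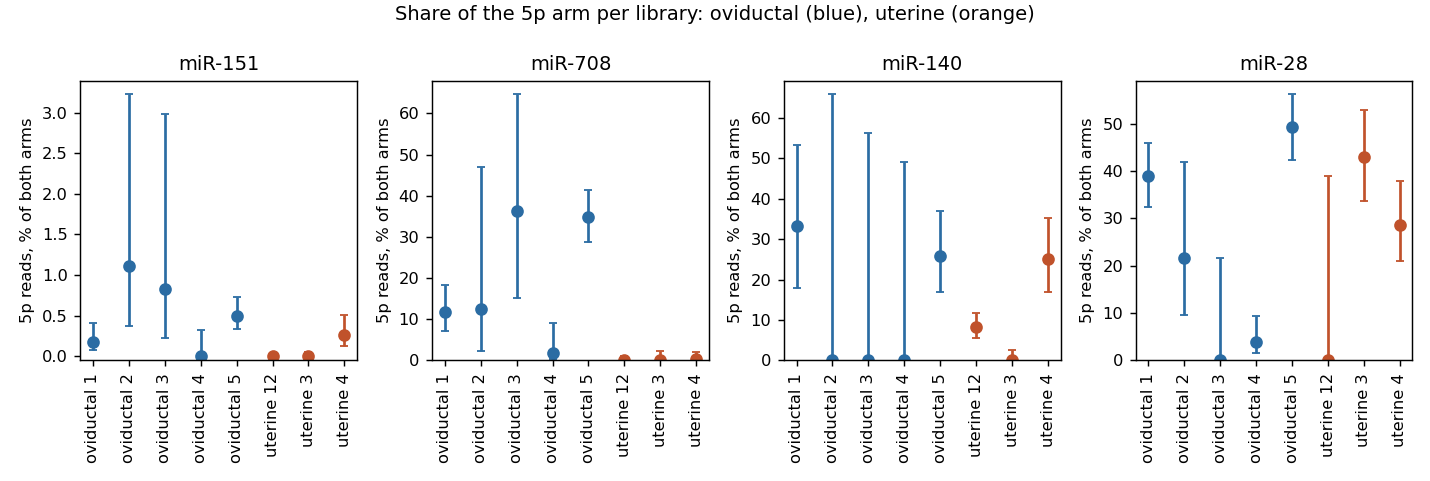
Share of 5p reads among the reads of both arms, in percent, for each library and for miR-151, miR-708, miR-140 and the related miR-28, on linear axes that differ between panels. Points are libraries, oviductal in blue and uterine in orange, and bars are 95% Wilson intervals, which cover counting error only. The uterine points of miR-708 lie at 0% to 0.389%, while those of miR-28 reach 43.0%.

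The related precursor miR-28 served as a comparison. Its 5p share was 34.1% of 534 pooled oviductal and 34.6% of 214 pooled uterine reads. By library it ran from 0% to 49.2% in the oviductal group and was 0% (of 6 reads), 43.0% and 28.7% in uterine replicates 12, 3 and 4. A set of 66 precursors outside the members, miR-28 included, had reads of both arms and at least 100 reads in each group. Their pooled 5p share was lower in uterine vesicles in 32 and higher in 34, with a median difference of 0.0037 percentage points. None of these precursors was chosen for a higher uterine level. The members were, which lowers the uterine 5p share of the members by itself. The size of that part was not tested. A shift of 10 points or more, a limit chosen after the values were seen, was found in 6 of the 66: the 5p share was lower by that much in 2, miR-195 and miR-574, and higher in 4, miR-30b, miR-129-1, miR-34b and miR-340. In 18 of the 66 the oviductal share was under 10% and could not fall that far. The number of miRNAs with at least 1 read differed too: 160, 205 and 270 in uterine replicates 12, 3 and 4, and 197 to 261 in the oviductal libraries. Uterine replicates 12 and 3, without a read of miR-151-5p or miR-708-5p, had fewer miRNAs detected than uterine replicate 4. The part of this in the arm shares was not tested.

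Other miRNAs of protein-coding host genes went both ways. A list of such miRNAs written from human and mouse gene structure had 128 names in the table, of which 122 lay inside a protein-coding gene of the RefSeq table. Of these 128, 51 were tested. None passed edgeR's adjusted threshold in either direction and 3 had an unadjusted p under 0.05, against 28 of all 178 tested miRNAs (15.7%). DESeq2 and limma-voom called none of the 51, against 11 and 1 of the 178. Their log2 fold changes were positive in 24 and negative in 27, with a median of -0.03 beside -0.02 over all tested miRNAs. The most abundant were miR-26a-5p at -0.03 ± 0.39 (SE) and let-7g-5p at 0.40 ± 0.46. Taking instead each miRNA within a protein-coding gene of the RefSeq table, members left out, 107 were tested, with 53 positive and 54 negative values and a median of -0.01. Of these, edgeR called 1, miR-143-3p, whose gene lies within the span of IL17B there, and 9 had an unadjusted p under 0.05. DESeq2 called 3 of them and limma-voom 1. The miR-28 arms were both negative, at -0.96 ± 0.86 for miR-28-3p and -0.28 ± 1.39 (SE) for miR-28-5p. Neither passed edgeR's threshold, unadjusted or adjusted, nor that of DESeq2 or limma-voom.

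The 3p arms resembled each other across libraries, miR-708-3p the least. Over log2(CPM + 1) of 8 libraries, Pearson's r was 0.96 between miR-140-3p and miR-151-3p, 0.86 between miR-151-3p and miR-708-3p and 0.82 between miR-140-3p and miR-708-3p. None of the 174 tested miRNAs outside the members was closer to miR-140-3p or to miR-151-3p than these were to each other. This did not hold for miR-708-3p, to which 1 was closer than miR-151-3p and 1 closer than miR-140-3p. To miR-140-3p, 2 were closer than miR-708-3p. The members were chosen for a shared difference between the fluids, which raises these values. Taken over deviations from the group means, which removes that difference, r was 0.87, 0.57 and 0.37 in the same order. Each is over 8 libraries of unequal depth, and uterine replicate 12 holds the highest value of all 3 arms.

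Outside the members, the profiles most like miR-140-3p were those of miR-1-3p (r = 0.88), miR-146a-5p (0.85) and miR-24-2-5p (0.80), and the same 3 were the closest to miR-151-3p, at 0.77, 0.72 and 0.73. Closest to miR-708-3p were miR-143-3p (0.90), miR-340-5p (0.81) and miR-146a-5p (0.81). In these terms miR-1-3p is a miRNA of striated and smooth muscle, miR-143-3p of smooth muscle and other mesenchymal cells, and miR-146a-5p of leukocytes. By deviations from the group means the closest to miR-140-3p were miR-196a-2-5p and miR-196a-5p (0.77), which have identical reads, and then miR-1-3p (0.76). To miR-151-3p the closest was miR-206-3p (0.67), followed by the identical miR-196a pair (0.65). For miR-708-3p they were miR-340-5p (0.88), miR-185-5p (0.83) and miR-223-5p (0.77). Each of these is above its r with miR-151-3p (0.57) and with miR-140-3p (0.37) by this measure.

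Markers of other cell types moved with the 3p arms in part. The 3p arms of the 3 precursors together took 0.492% to 0.919% of oviductal reads and 4.19%, 1.54% and 1.17% of those of uterine replicates 12, 3 and 4. The muscle list, miR-1, miR-143, miR-145 and others, took 0.388% to 0.477% of oviductal reads and 2.57%, 0.569% and 4.69% in the same order. The 5 tested members of that list had positive log2 fold changes, and 1 of them, miR-143-3p, was called at 2.81 ± 0.48 (SE; edgeR adjusted p = 0.00261), while miR-1-3p at 5.50 ± 1.34 (SE) was not (edgeR adjusted p = 0.0503). DESeq2 called both of these and limma-voom only miR-143-3p. Over all 178 tested miRNAs edgeR called 3, DESeq2 11 and limma-voom 1. The summed 3p share is mostly miR-151-3p. In uterine replicates 3 and 4 miR-151-3p and miR-140-3p were higher in replicate 3, while miR-708-3p was higher in replicate 4 (878.7 against 339.7 CPM), as was the muscle share.

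A list of mesenchymal miRNAs took 0.780% to 1.18% of oviductal reads and 1.31%, 0.619% and 1.60% of those of uterine replicates 12, 3 and 4. Its 5 tested members were all positive, with a median of 1.81, none called by edgeR, DESeq2 or limma-voom and 1 with an unadjusted p under 0.05. The most abundant were miR-21-5p at 0.60 ± 0.39 and miR-199a-3p at 1.85 ± 0.70 (SE). The epithelial list took 9.24% to 11.97% of oviductal reads and 1.34%, 6.59% and 3.55% of uterine ones, with 11 of 13 tested members negative, a median of -1.05, none called by edgeR, 5 with an unadjusted p under 0.05 (15.7% over all tested miRNAs), 1 called by DESeq2 and none by limma-voom. Its most abundant members, miR-200c-3p and miR-34c-5p, were at -1.13 ± 0.52 and -0.39 ± 0.56 (SE). In 6 of the 13 epithelial miRNAs every uterine library had a lower CPM than every oviductal one, against 18 of all 178 tested. The uterine library with the fewest epithelial reads, replicate 12, was the one with the highest 3p arms. Replicate 3, with the most epithelial reads, had the lowest uterine miR-708-3p, while miR-140-3p and miR-151-3p were lowest in replicate 4.

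Blood and liver miRNAs were measured beside them. The erythrocyte list took 0.0922% to 0.288% of oviductal reads and 0.362%, 0.123% and 0.768% in uterine replicates 12, 3 and 4, with miR-451-5p at 2.16 and miR-486-5p at 0.44. The leukocyte list took 0.102% to 0.245% and 0.144%, 0.0786% and 0.367%, and its 4 tested members were all positive, with a median of 1.82. They were miR-150-5p at 0.94, miR-155-5p at 0.03, and, named after their values were seen, miR-146a-5p at 2.95 and miR-223-5p at 2.71. For miR-146a-5p every uterine library was above every oviductal one, as in 4.49% of all tested miRNAs. The liver miRNA miR-122-5p, at a log2 fold change of 2.79, took 0.0062% to 0.0588% of oviductal reads. In uterine replicates 12, 3 and 4 it took 0.306%, 0.0579% and 0.0299%. Of the erythrocyte, leukocyte and liver lists 2, 4 and 1 miRNAs were tested. edgeR called none of them, and 1 of each list had an unadjusted p under 0.05, against 28 of all 178 tested (15.7%). DESeq2 called 1 of each list and limma-voom none, against 11 and 1 of the 178. The endothelial list, miR-126 alone, matched no name. The part of muscle, epithelial, blood and liver material in the levels of the 3p arms was not tested.

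**Figure D5:**
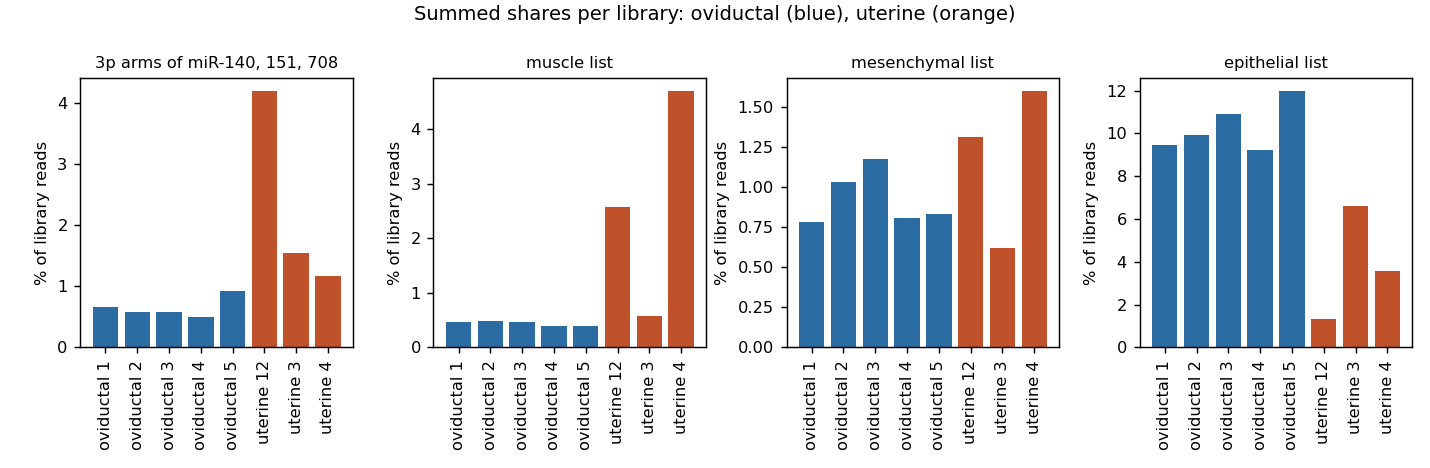
Summed share of library reads, in percent, of the 3p arms of miR-140, miR-151 and miR-708 and of the muscle, mesenchymal and epithelial lists, with bars from 0 for each library, oviductal in blue and uterine in orange. The 3p arms are highest in uterine replicate 12, at 4.19%, and the muscle list in uterine replicate 4, at 4.69%.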

How the data were processed

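Small RNA was sequenced from pooled vesicle preparations, 5 oviductal and 3 uterine. The authors deposited raw counts by mature name and precursor (615 rows, 579 names) beside RPM, which the counts and column sums gave back within 0.005. The submitters' processing notes name the build OryCun2.0 and the tool FastQC. Aligner and counter: not given in the sources used here. Each name was represented by its row of most reads, and CPM were computed from those counts. Fits used edgeR 4.0.16 (TMM, filterByExpr, robust quasi-likelihood, Benjamini-Hochberg) under R 4.3.3 on all 178 miRNAs that passed, tested on simulated data. Each SE is the absolute log2 fold change over the square root of F. Sign-flip tests used scipy 1.17.1 and a pseudocount of 0.5 reads. The p-values measure the spread between pools, which may share does. Alternatives covered scaling, filter, repeated rows, DESeq2 1.42.0, limma-voom (limma 3.58.1), a block by replicate number and each library left out. Leaving out both shallow libraries, leaving out oviductal replicate 5 in pooled values of miR-708, and the RefSeq host list (575 names matched), were chosen after seeing the data. The members and lists were chosen with earlier results of these data known. The text names all members, the 3 miRNAs with the highest r to each 3p arm by each measure (the 5p arms have too few reads), and from each list those called and the 2 most abundant. Intervals and floors cover counting error only. No miRNA sequences were used here.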

Additional observations from a re-analysis of the deposited data

How the results depend on the processing

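The count of 3 miRNAs past the threshold over the whole table was 1 with library totals only, 6 with upper-quartile factors, 11 by DESeq2, 13 with no filter, 7 with rows of a name summed, 1 by limma-voom and 0 without the 2 shallowest libraries (20 with an unadjusted p under 0.05). With 1 library left out it ran from 1 (without oviductal replicate 2 or uterine replicate 12) to 27 (without uterine replicate 3). It was 0 with a replicate block, where 8 had an unadjusted p under 0.05 and miR-151-3p was at a log2 fold change of 1.62. That block used the numbers in the titles, of which the groups share only 3 and 4. Uterine replicate 12 thus stood alone in it, and the contrast rested on the libraries numbered 3 and 4. These numbers are not stated to pair animals. With 1 library left out, log2 fold changes ran from 2.70 to 4.54 for miR-140-3p, from 1.36 to 2.77 for miR-151-3p, from 1.55 to 2.73 for miR-708-3p and from -5.86 to -1.23 for miR-151-5p, whose lowest value, without uterine replicate 4, is fitted against 0 reads. The median of all tested miRNAs moved to -0.31 with library totals only, to 0.19 with upper-quartile factors and to -0.40 by limma-voom. Relative to it miR-140-3p was at 3.80, 3.96 and 3.71, miR-151-3p at 2.10, 2.26 and 2.29 and miR-708-3p at 2.41, 2.45 and 2.37. In the oviductal libraries alone the mean log2 ratio of miR-151-5p to miR-151-3p was -8.13 (exact permutation p = 0.0625, the smallest that 5 libraries allow), so 0 of the 15 pairs of members could pass there. With 1 library left out 10 to 11 passed. The called count of the muscle list, 1, ran from 0 to 3 over the alternatives and that of the epithelial list from 0 to 8, the latter without uterine replicate 3. Depth limits the 5p arms and miR-140-3p in the oviductal libraries most.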
